A study of Mus musculus with 20 samples.

Results

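The Deltex genes Dtx1, Dtx2, Dtx3 and Dtx4 and the Notch feedback gene Nrarp were followed in RNA-seq counts of E2-10HA cells, a mouse hybridoma that the labels call mature T cells. They were taken by gene symbol from the count files and are 5 of the 24391 genes listed there. All 20 samples are bulk samples of this line and fell into 6 groups. CRISPR control samples (n = 6) carried the empty lentiCRISPRv2 vector, and H2A.Z guide samples (n = 6) carried lentiCRISPRv2-sgH2afv/H2afz, which targets the H2afv and H2afz genes for the histone variant H2A.Z. Both were selected with puromycin, and every guide sample carries the label #12, so the guide samples were treated as samples of 1 line. BioNICD samples carried pLXSP-BirA, for the biotin ligase BirA, together with pMY-BioNICD-IRES-GFP in the wild type (n = 2) or with the DEP form of that plasmid (n = 2), selected by histidinol and sorting. BioNICD is a biotin-tagged Notch intracellular domain (NICD), and what DEP stands for is not given in the sources used here. NICD-ER samples carried pMIGRI Flag-NICD-ER IRES GFP, were sorted, and received ethanol (n = 2) or (Z)-4-hydroxytamoxifen, 4-OHT (n = 2), for 24 hours. NICD-ER joins NICD to the binding domain of the estrogen receptor, which 4-OHT engages. Whether replicates are separate cultures is not in the labels, and p-values here speak only for the spread among these libraries, which may be technical.

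Notch receptors are cut after ligand binding, and the freed NICD enters the nucleus, binds the DNA-binding protein RBPJ and switches on target genes. Deltex proteins are RING-type E3 ubiquitin ligases; DTX1, DTX2 and DTX4 carry WWE domains, which in Deltex proteins contact the ankyrin repeats of NICD, and DTX3 lacks them. Dtx1 and Nrarp are known Notch targets in lymphocytes, and Nrarp encodes a small ankyrin-repeat protein that binds the NICD and RBPJ complex and limits it. In T cells Dtx1 is also known from anergy, a state of low responsiveness.

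The libraries held 10704131 to 15440584 counts in the CRISPR controls, 13309111 to 18344298 with the guides and 16371601 to 48238324 in the NICD samples. Levels are given as CPM, read counts scaled to library size with TMM factors over all 20 samples, and genes are compared with each other only as RPKM, which also divides by exon length. Both targeted genes were lower in each guide sample than in any control: H2afz stood at 5.19 ± 0.44 CPM against 28.2 ± 2.50 (SD, n = 6 each), and H2afv at 36.0 ± 12.0 against 127 ± 11.8. The summed level of 14 T cell markers was 1500 to 2674 CPM over all samples, and 10 to 11 of the 14, Cd3e, Lck and Cd4 among them, were above 1 CPM in each group. Cd8a and Cd8b1 were at or near 0, Cd5 averaged at most 0.475 CPM in any group, and the T cell receptor chain gene Cd247 averaged 0.0846 CPM in the controls, 0.541 and 0.780 CPM in the DEP mutant and wild-type BioNICD, 6.58 and 5.72 CPM with ethanol and 4-OHT, and 19.1 CPM with the guides. Of 8 B cell markers, Cd22 alone passed 1 CPM in any group. Summed NK and erythroid markers stayed at or under 2.33 CPM, and 4 fibroblast markers reached 26.9 CPM in control replicate 1 and 30.7 CPM in guide replicate 1 against at most 0.284 CPM in the other samples; their part in the results was not tested. The CRISPR samples form a set 1 (replicates 1 and 2), whose labels carry a treatment field, and a set 2 (replicates 3 to 6), whose labels do not, and the file headers name a different output folder for each set.

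The mm9 gene models place Dtx1 on chromosome 5 from 121130273 to 121161678 (minus strand, 10 exons), Dtx2 on chromosome 5 from 136470670 to 136508751 (plus strand, 12 exons), Dtx3 on chromosome 10 from 126627434 to 126632765 (minus strand, 6 exons), Dtx4 on chromosome 19 from 12540826 to 12576486 (minus strand, 9 exons) and Nrarp on chromosome 2 from 25036278 to 25038852 (plus strand, 1 exon). Counts were summed over these exons, and no exon of the 5 genes overlaps an exon of another listed gene. The longest run of bases shared by annotated transcripts of any 2 of the 5 genes was 23 (Dtx1 and Dtx2).

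Dtx1 and Nrarp were higher with 4-OHT than with ethanol and higher with wild-type BioNICD than in the DEP mutant. Dtx2 was called in neither comparison. The 250 bases before the start of these 3 genes are shown to set them side by side. The sequences are from RefSeq (GRCm38.p6), read 5′ to 3′ on the gene's strand, and 3 of the 5 genes are in that table. Capitals mark TTCCCA or TGGGAA, the core letters that RBPJ is known to bind.
Dtx1, chr5:120711670-120711919, minus strand: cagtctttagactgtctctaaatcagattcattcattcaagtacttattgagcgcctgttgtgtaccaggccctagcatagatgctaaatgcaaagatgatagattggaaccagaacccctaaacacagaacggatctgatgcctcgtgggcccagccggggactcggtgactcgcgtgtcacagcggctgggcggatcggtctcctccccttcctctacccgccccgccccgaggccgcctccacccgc
Nrarp, chr2:25180508-25180757, plus strand: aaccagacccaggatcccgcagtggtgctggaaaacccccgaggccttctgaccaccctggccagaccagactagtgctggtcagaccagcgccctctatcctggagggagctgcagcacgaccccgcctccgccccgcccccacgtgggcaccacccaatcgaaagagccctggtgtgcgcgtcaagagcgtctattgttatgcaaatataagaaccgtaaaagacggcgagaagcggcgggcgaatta
Dtx2, chr5:135994550-135994799, plus strand: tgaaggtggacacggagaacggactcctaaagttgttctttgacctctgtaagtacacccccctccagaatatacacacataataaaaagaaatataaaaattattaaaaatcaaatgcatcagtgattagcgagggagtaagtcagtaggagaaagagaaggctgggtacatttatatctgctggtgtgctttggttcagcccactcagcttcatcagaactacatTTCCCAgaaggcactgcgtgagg
The letters TGGGAA were searched on both strands. They are not in the Dtx1 and Nrarp windows and occur at 1 place in the Dtx2 window, as TTCCCA beginning 23 bases before the start. Bases outside these windows were not searched, and binding of RBPJ was not tested. Of 32851 windows of this length in the table, 7094 (21.6%) hold TGGGAA on either strand. The longer form CGTGGGAA, whose matches are also matches to TGGGAA, is in 209 windows (0.636%) and in none of these 3. The Dtx1 and Nrarp windows are richer in G and C (56.4% and 61.2%, with 15 and 18 CpG) than the Dtx2 window (42% and 4 CpG).

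Dtx1 spanned the widest range of the 5 genes. It was counted 0, 1, 6, 5, 3 and 3 times in the 6 CRISPR controls and 2, 2, 0, 0, 1 and 0 times in the 6 guide samples, which is at most 0.412 CPM in any of these libraries. The DEP mutant samples held 1.59 and 1.83 CPM (27 and 39 counts), and the ethanol samples 29.4 and 27.3 CPM. With 4-OHT the level was 361 and 365 CPM, and with wild-type BioNICD 1643 and 1615 CPM. The 4 NICD groups therefore stood apart from each other and from the CRISPR samples with no overlap, while the control and guide ranges overlapped. Per length, Dtx1 ranked 86 of 24391 genes with wild-type BioNICD (439 RPKM), 695 with 4-OHT (97.7 RPKM), 7092 with ethanol (7.63 RPKM) and 10683 in the DEP mutant (0.461 RPKM). In bulk RNA, more cells that express a gene and more RNA per cell cannot be told apart.

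Nrarp was scarce throughout. No read was counted in either DEP mutant sample, and the controls held 0, 0, 0, 1, 1 and 0 counts. The ethanol samples held 3 counts each (0.0971 and 0.0931 CPM), the wild-type BioNICD samples 100 and 43 (2.01 and 1.80 CPM), and the 4-OHT samples 118 and 175 (3.32 and 4.28 CPM). Its order thus differed from that of Dtx1: the 4-OHT samples were higher than the wild-type BioNICD samples, with no overlap. The guide samples held 5, 9, 10, 1, 7 and 5 counts (lowest 0.0648, median 0.438 and highest 0.639 CPM), a range that overlapped the ethanol samples and, through replicate 4, the controls. Nrarp averaged 1.47 RPKM with 4-OHT (highest 1.66 RPKM, replicate 2), against 97.7 RPKM for Dtx1 in the same samples.

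Dtx4 was lowest in the CRISPR samples, with 1.504 to 4.43 CPM in the controls (median 3.39) and 1.64 to 2.94 CPM with the guides (median 2.42). It stood at 4.78 and 4.46 CPM in the DEP mutant, 4.60 and 4.93 CPM with ethanol, 5.14 and 5.92 CPM with 4-OHT, and 16.0 and 15.9 CPM with wild-type BioNICD. Wild-type BioNICD lay above all other groups, the DEP mutant and ethanol samples overlapped, and so did the control and guide samples.

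Dtx2 and Dtx3 were present at similar levels in every sample. Dtx2 ranged from 32.1 to 41.4 CPM in all samples without H2A.Z guides and from 23.0 to 28.0 CPM with them. In the order of group means the wild-type BioNICD samples lay above their neighbour, the DEP mutant, without overlap. They did overlap the controls, whose replicate 1 stood at 39.2 CPM against 39.0 CPM in wild-type replicate 2. The guide samples lay below all other groups. The 4 groups between (DEP mutant, ethanol, control, 4-OHT) overlapped in turn. Dtx3 ranged from 35.5 to 42.3 CPM over the 8 NICD samples, whose 4 groups overlapped in turn, and from 26.5 to 35.2 CPM over the 12 CRISPR samples, where controls and guides overlapped.

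**Figure D1:**
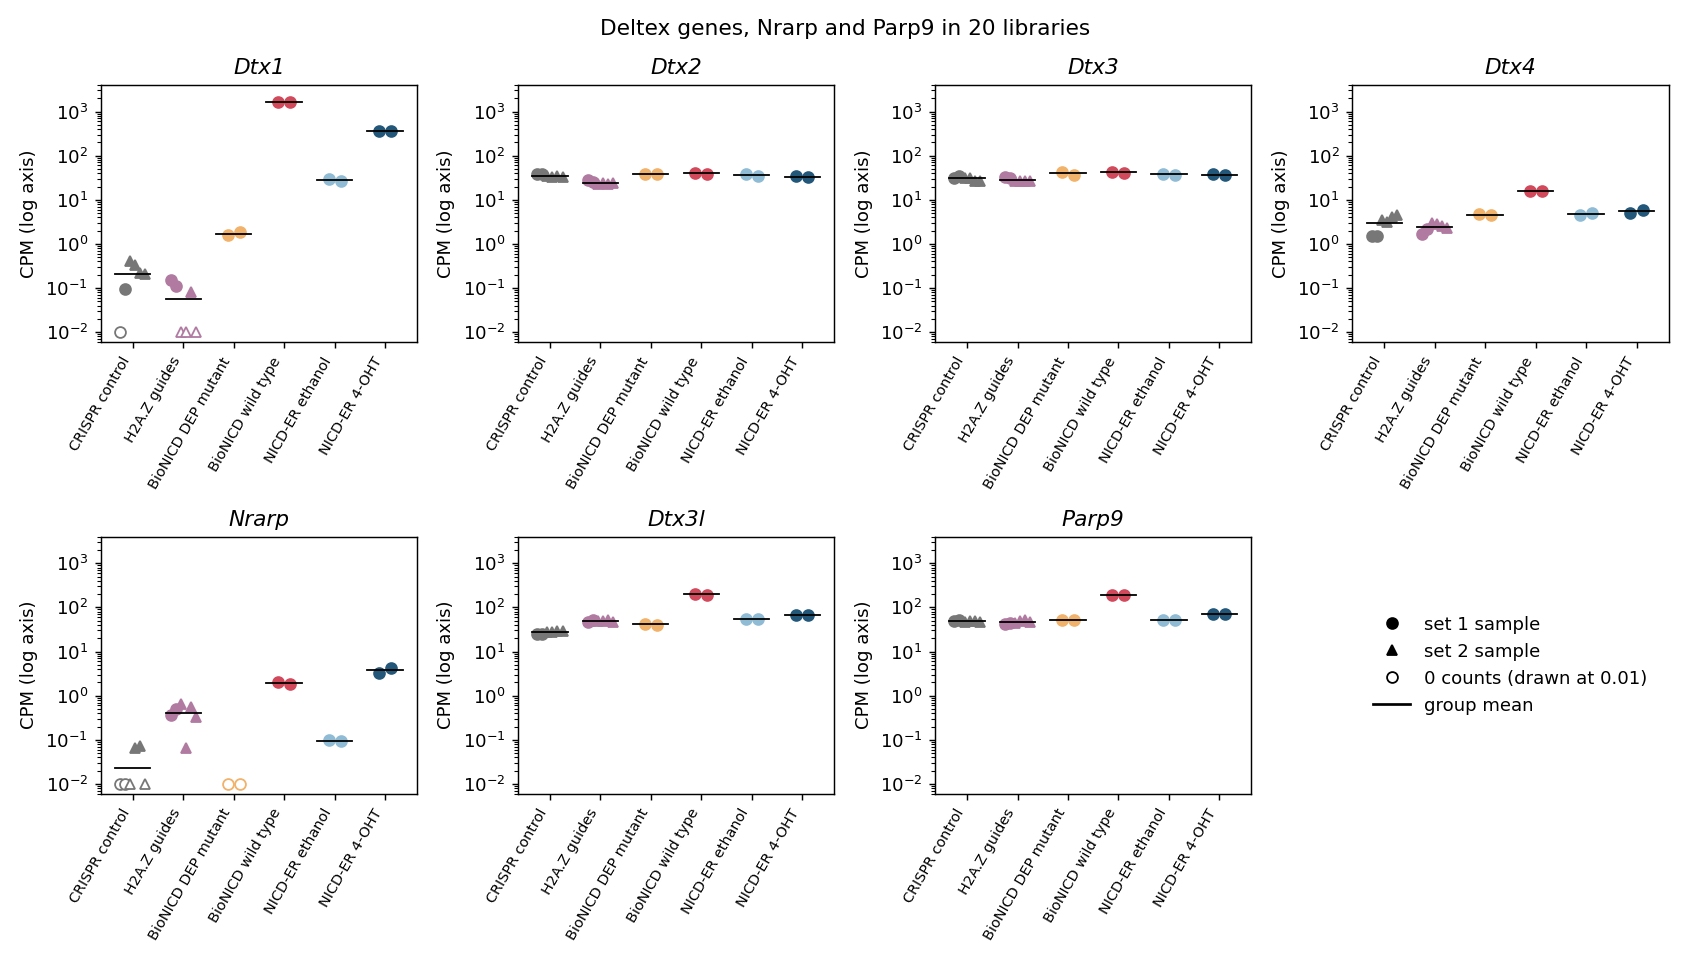
Level of each Deltex gene, Nrarp and Parp9 (partner of Dtx3l) in each of the 20 libraries, in CPM on a log axis, by group; points are libraries (circles set 1, triangles set 2), open points are libraries with 0 counts drawn at 0.01, and bars are group means. Dtx1 climbs from at most 0.412 CPM in the CRISPR samples to 1615 and 1643 CPM with wild-type BioNICD, while Dtx2 and Dtx3 stay between 23.0 and 42.3 CPM.

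The make-up of Deltex RNA shifted with Dtx1. Per length, Dtx3 and Dtx2 supplied nearly all Deltex RNA in the controls (50.1% to 56.6% and 41.2% to 47.1% of the summed RPKM of Dtx1 to Dtx4), and Dtx1 at most 0.377%. Dtx1 made up 1.17% to 1.44% in the DEP mutant, 18.5% with ethanol, 74.4% to 76.0% with 4-OHT and 91.8% to 91.9% with wild-type BioNICD. The summed level was 26.5 to 32.3 RPKM in the controls, 22.5 to 27.0 with the guides, 34.2 to 36.7 in the DEP mutant and 39.8 to 42.7 with ethanol. It reached 129 to 131 RPKM with 4-OHT and 473 to 482 RPKM with wild-type BioNICD. Dtx4 never exceeded 2.90% of the sum.

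**Figure D2:**
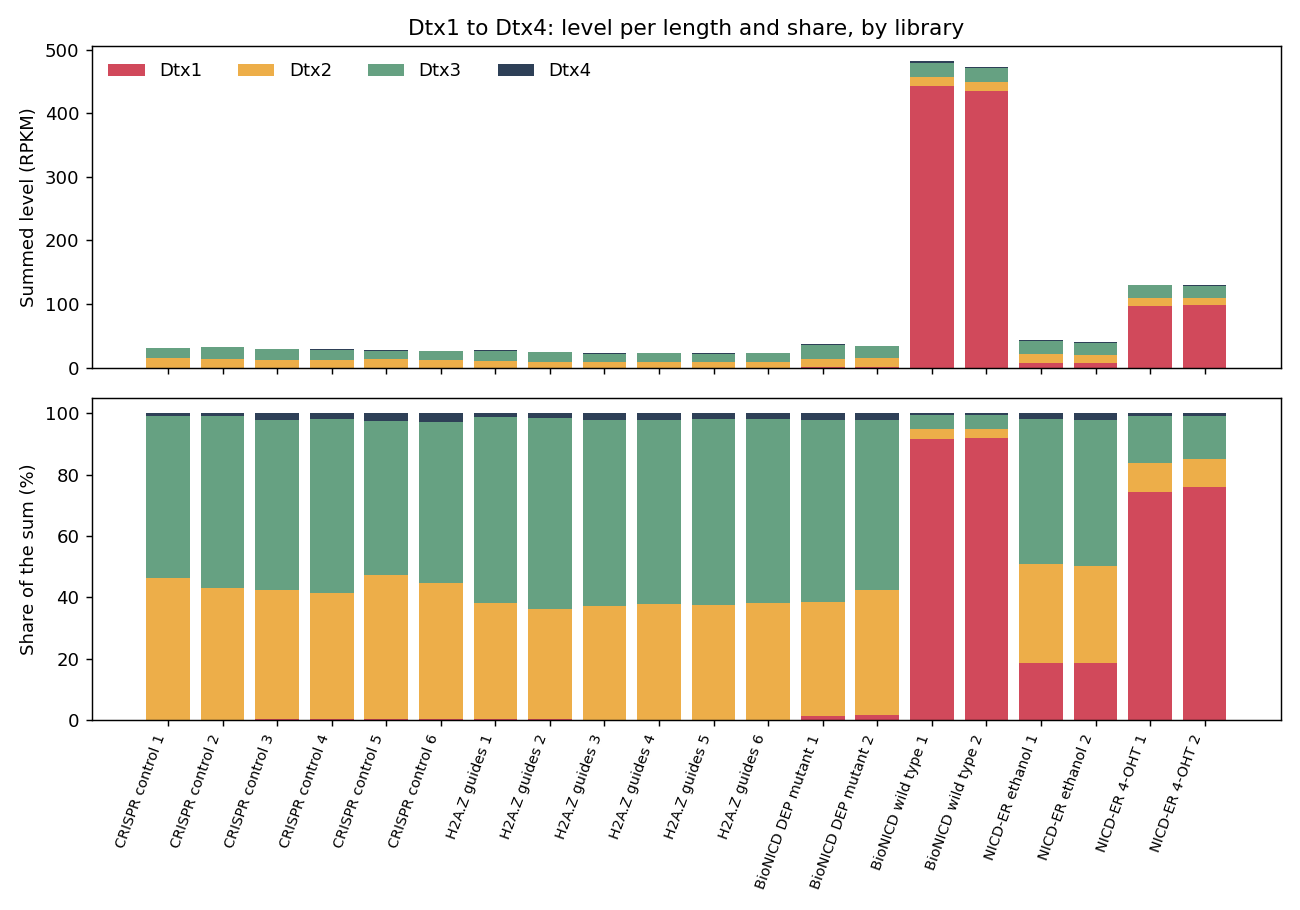
Summed level of Dtx1 to Dtx4 in RPKM (top) and the share of each gene in that sum in percent (bottom), 1 bar per library. Dtx1 holds 91.8% to 91.9% of the sum with wild-type BioNICD and 74.4% to 76.0% with 4-OHT, and Dtx2 and Dtx3 hold most of it in the CRISPR, DEP mutant and ethanol libraries.

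NICD-ER cells with 4-OHT for 24 hours were compared with NICD-ER cells with ethanol. No sample had 4-OHT without NICD-ER, so effects of the drug and of active NICD cannot be told apart. Early and later responses cannot be told apart at 24 hours either. Dtx1 rose 12.8-fold over ethanol (log2 fold change 3.68, SE 0.0452, adjusted p = 3.8e-25, edgeR quasi-likelihood test), and both treated samples lay above both ethanol samples. Nrarp rose by 5.27 on the log2 scale (SE 0.35, adjusted p = 3.83e-11, edgeR); the ratio of pooled levels was 40.3, with a 95% counting interval of 18.3 to 111 that rests on 6 counts in ethanol and covers counting error only. Among 12499 genes tested, Nrarp had the 24th and Dtx1 the 59th highest log2 fold change.

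The remaining Deltex genes did not pass the test with 4-OHT. Dtx2 differed by -0.12 (95% interval -0.294 to 0.0449, adjusted p = 0.121, edgeR), Dtx3 by -0.03 (-0.21 to 0.153, adjusted p = 0.783) and Dtx4 by 0.22 (-0.109 to 0.551, adjusted p = 0.162) on the log2 scale. Thus 2 of the 5 genes were called, both higher, where 36.2% of all genes tested were called and 19% were called higher. Without ethanol replicate 2 Dtx2 was called lower (-0.19, adjusted p = 0.036). Ethanol replicate 1 held 91.0 CPM of the mitochondrial leucyl-tRNA synthetase Lars2 against 2184 to 2968 CPM in the other 3 NICD-ER samples; its part in these results was not tested, and without it the Dtx1, Dtx2, Dtx4 and Nrarp values kept their sign and their calls.

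Wild-type BioNICD against its DEP mutant compares a steady supply of NICD with the altered form. Dtx1 was 931-fold higher with the wild type (log2 fold change 9.86, SE 0.0695, adjusted p = 1.82e-30, edgeR), the 58th highest log2 fold change of 12499. Nrarp was at least 24.7-fold higher, taken against a floor of 3 counts over the DEP mutant group, which had none (adjusted p = 9.75e-09, edgeR). Dtx4 rose 3.42-fold (log2 fold change 1.77, SE 0.117, adjusted p = 4.96e-12, edgeR). Each wild-type sample lay above each DEP mutant sample for all 3 genes, which with 2 samples in each group adds little to the test.

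Dtx2 and Dtx3 did not pass the test between wild-type BioNICD and the DEP mutant: Dtx2 differed by 0.07 on the log2 scale (95% interval -0.108 to 0.25, adjusted p = 0.341, edgeR) and Dtx3 by 0.07 (-0.128 to 0.259, adjusted p = 0.426). The calls were thus 3 of the 5 genes, all higher, against 65.6% of all genes tested called and 32% called higher, so calls were frequent in this comparison. Reads assigned to Notch1 count both the endogenous gene and the NICD construct and cannot tell them apart. They were more frequent in the DEP mutant (643 ± 20.9 CPM) than in the wild type (282 ± 11.3 CPM, n = 2 each), so the wild type had the higher levels of Dtx1, Dtx4 and Nrarp with fewer Notch1 reads. Among marker genes of other cell types, Cd22 (B cells) was at 1396 ± 34.9 CPM in the wild type against 0.618 ± 0.123 in the DEP mutant. The other B cell markers were under 1 CPM in both groups, with Pax5 at 15 counts in the wild type against 0 in the DEP mutant and Cd79b at 2 against 0. The summed level of 7 myeloid markers was 61.9 to 63.7 CPM in the wild type against 1.27 to 1.53. Itgam carried that difference (62.2 ± 1.15 against 0.135 ± 0.0587 CPM), while Lyz2 (0.164 against 0.329 CPM) and Fcgr3 (0.183 against 0.654 CPM) had lower means in the wild type.

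The 2 NICD comparisons differ in construct, selection and duration, and their effects were compared directly in the same fit. The Dtx1 difference was the smaller of the pair for NICD-ER (NICD-ER effect minus BioNICD effect -6.18 on the log2 scale, SE 0.0917, adjusted p = 1.7e-23, edgeR). The baselines also differ, 27.3 to 29.4 CPM with ethanol against 1.59 to 1.83 CPM in the DEP mutant. For Dtx4 the difference of effects was -1.55 (SE 0.172, adjusted p = 8.36e-08, edgeR). Dtx2 (-0.20, 95% interval -0.442 to 0.0506, adjusted p = 0.0699) and Dtx3 (-0.09, -0.359 to 0.172, adjusted p = 0.439) did not pass, and neither did Nrarp (adjusted p = 0.16, edgeR), whose size cannot be given against a group without counts. The effects differed in 2 of the 5 genes, and in 51.5% of all genes tested. Without ethanol replicate 2 Dtx2 passed as well (-0.26, adjusted p = 0.0196).

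**Figure D3:**
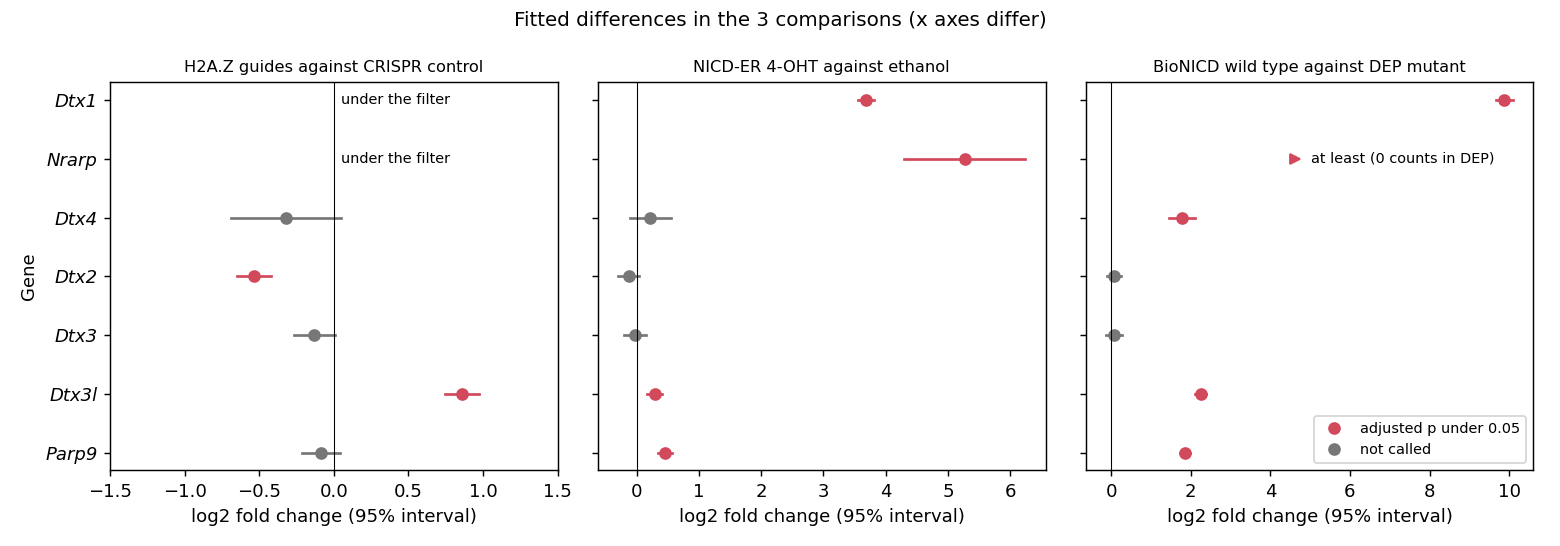
Fitted log2 fold change with its 95% interval for each gene in the 3 comparisons; red marks an adjusted p under 0.05 (edgeR), grey a value not called, the triangle the lower bound for Nrarp where the DEP mutant had 0 counts, and the x axes differ in scale. Dtx1 and Nrarp lie far to the right in both NICD comparisons, Dtx2 and Dtx3 lie near 0 there, and Dtx2 lies left of 0 with the H2A.Z guides.

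The H2A.Z guide samples were compared with the CRISPR controls in cells without added NICD. They were treated as samples of 1 line, so the line and its lower H2afz and H2afv RNA cannot be told apart. Dtx2 fell by 0.53 on the log2 scale (SE 0.0508, adjusted p = 1.52e-07, edgeR), from 32.2 to 39.2 CPM in the controls (median 34.4) to 23.0 to 28.0 CPM with the guides (median 23.6), with no overlap. Dtx3 differed by -0.13 (95% interval -0.266 to 0.00498, adjusted p = 0.0678, edgeR) and Dtx4 by -0.32 (-0.692 to 0.0452, adjusted p = 0.0943); neither passed. Dtx1 and Nrarp had too few counts to enter the fit, so 1 of 3 tested genes was called, lower, where 64.5% of 10662 genes tested were called and 32.7% were called lower. Dtx2 lies on chromosome 5, on which 61.9% of 682 tested genes were called lower, with a median log2 fold change of -0.33 against -0.01 over all tested genes; whether the Dtx2 difference is part of that shift was not tested.

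Nrarp and Dtx1 were tested on single values, since the expression filter removed them. Mean Nrarp was 0.388 CPM higher with the guides (0.411 ± 0.206 against 0.0231 ± 0.0359 CPM, n = 6 each; exact two-sided permutation p = 0.00649 over 924 splits, adjusted over both genes 0.013, smallest possible 0.00216). The pooled ratio was 16.2 from 37 against 2 counts, with a 95% counting interval of 4.18 to 139. The direction was the same in both sets: 0.373 and 0.503 CPM against 0 and 0 in set 1, and 0.0648 to 0.639 CPM against 0 to 0.0731 in set 2, where replicate 4 lay within the control range. Mean Dtx1 was 0.154 CPM lower (0.0569 ± 0.0660 against 0.211 ± 0.150 CPM, n = 6 each; exact two-sided permutation p = 0.0519, adjusted 0.0519). These splits ignore the set. Over the 420 splits within sets the exact permutation p was 0.0143 for Nrarp (adjusted 0.0286) and 0.0476 for Dtx1 (adjusted 0.0476), with a smallest possible p of 0.00476, so for Dtx1 the side of the 0.05 threshold turned on how the splits were drawn. For Dtx1 the set means went opposite ways, at 0.131 against 0.0474 CPM in set 1 and 0.02004 against 0.293 CPM in set 2. The set 1 direction rests on 2 and 2 counts with the guides against 0 and 1 in the controls, each under 3 counts. With no filter, edgeR called Nrarp (adjusted p = 0.000154) and not Dtx1 (adjusted p = 0.0706).

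Dtx4 also went opposite ways in the 2 sets of CRISPR samples. In set 1 the controls held 1.504 and 1.515 CPM and the guide samples 1.64 and 2.24 CPM; in set 2 the controls held 3.22 to 4.43 CPM and the guide samples 2.35 to 2.94 CPM, with no overlap. Fitted alone, set 1 gave 0.36 (adjusted p = 0.489) and set 2 -0.52 (adjusted p = 0.00472) on the log2 scale (edgeR). The difference of the effects between sets, -0.91 (SE 0.319, adjusted p = 0.0715, edgeR), did not pass, and 14.4% of 11241 genes passed that test. Without guide replicate 2 the pooled Dtx4 difference was called (-0.44, adjusted p = 0.0159), and without control replicate 5 Dtx3 was called (-0.16, adjusted p = 0.0342). Control replicate 6 and guide replicates 5 and 6 carried 6.73% to 7.67% of their counts in the ribosomal precursor Rn45s against 2.46% to 3.42% in the other 9 CRISPR samples.

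To place the NICD lines against cells with no NICD construct, 3 groups were set beside the CRISPR controls; these comparisons share their control samples, and the line, plasmid, selection and header folder differ with the group and cannot be told apart. Dtx1 was higher than in the controls in all 3. The pooled ratio to the 6 controls (18 counts) was 7162 with wild-type BioNICD (95% counting interval 4532 to 12090; adjusted p = 2.59e-29, edgeR), 124 with NICD-ER and ethanol (78.3 to 210; adjusted p = 2.16e-19) and 7.56 in the DEP mutant (4.44 to 13.5; adjusted p = 3.54e-08). The ethanol samples, which had no 4-OHT, thus already held more Dtx1 than the controls, and 98.4 ± 2.83 CPM of Notch1 reads against 2.00 ± 0.697. The fit, which sets these groups against the controls of set 1 (0 and 1 counts of Dtx1), gave log2 fold changes of 14.93, 9.06 and 5.04 in that order. Without control replicate 2 the only set 1 control left, replicate 1, had 0 counts of Dtx1. The size of the differences then cannot be given, and Dtx1 was still called each time.

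Dtx4 exceeded the CRISPR controls in the same 3 fits, by 3.41 with wild-type BioNICD (adjusted p = 7.18e-14, edgeR), 1.63 with ethanol (adjusted p = 1.25e-06) and 1.60 in the DEP mutant (adjusted p = 5.77e-06) on the log2 scale. All 3 values rested on the set 1 controls, which held less Dtx4 than those of set 2. For wild-type BioNICD the pooled ratio to the 6 controls was 5.00 (95% counting interval 4.36 to 5.75). Its log2 difference was 2.34 at the lowest among the alternatives run, and it was called in each. With no term for the set, the differences with ethanol and in the DEP mutant were 0.57 (adjusted p = 0.084, edgeR) and 0.54 (adjusted p = 0.151). Nrarp was higher with wild-type BioNICD (pooled ratio 76.6, 95% counting interval 20.8 to 638; adjusted p = 4.72e-07, edgeR), did not pass with ethanol (3.75, 0.671 to 38.0; adjusted p = 0.128), and was at or under 3 counts over the group in both the DEP mutant and the controls.

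Dtx3 was slightly higher than in the controls with wild-type BioNICD (0.32 on the log2 scale, adjusted p = 0.00365, edgeR), but not when control replicate 1 was left out (0.25, adjusted p = 0.0662). It did not pass in the DEP mutant (0.23, adjusted p = 0.0561) or with ethanol (0.16, adjusted p = 0.152), and Dtx2 passed in none of the 3 (0.08, -0.03 and -0.12; adjusted p = 0.352, 0.789 and 0.167, edgeR). In these fits of 12018 genes, 65.7% of all genes were called with wild-type BioNICD, where 4 of the 5 genes were, 50.8% in the DEP mutant and 60.3% with ethanol, where 2 of the 5 were each time.

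Dtx3l, a Deltex relative outside the 5 genes, encodes a ligase that works as a complex with PARP9 in DNA damage and interferon responses. Dtx3l and Parp9 lie on opposite strands of mm9 chromosome 16 and share 334 exon bases, and the counting set no strand option, so a small part of their reads cannot be told apart. With wild-type BioNICD both rose over the DEP mutant, Dtx3l from 42.0 ± 1.63 to 201 ± 7.34 CPM (log2 fold change 2.24, adjusted p = 1.11e-21, edgeR) and Parp9 from 52.0 ± 1.43 to 191 ± 3.80 CPM (1.86, adjusted p = 8.83e-21; n = 2 each). With 4-OHT the rises were 0.29 (adjusted p = 1.55e-05) and 0.46 (adjusted p = 7.8e-09). With the H2A.Z guides Dtx3l rose from 27.2 ± 1.76 to 49.6 ± 1.95 CPM (0.86, adjusted p = 4.91e-10, edgeR; n = 6 each) with no overlap, whereas Parp9 did not pass (-0.09, 95% interval -0.213 to 0.0404, adjusted p = 0.189).

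Other canonical Notch targets were read beside Dtx1 and Nrarp, from a list of 19 genes. Calls were frequent over all genes tested, 36.2% of them with 4-OHT, 65.6% with wild-type BioNICD and 64.5% with the guides, and the counts of every list are read beside these shares. With 4-OHT 7 of 13 tested rose and 4 fell. Largest were the rises of the atypical small GTPase Rhov (7.57 on the log2 scale) and the repressor Hey1 (6.48). The interleukin receptor chain Il2ra (2.06) and the repressor Hes1 (1.66) followed. The genes that fell were Myc (-1.08), Bcl2 (-0.48), Lfng (-0.34) and Gata3 (-0.11). The list's median was 0.217 against -0.000449 over all genes. With wild-type BioNICD 6 of 13 rose and 5, Notch1 among them, fell, with a median of 0.0909 against -0.0222; Il2ra (10.5), Hey1 (9.74) and Hes1 (3.69) rose, and Rhov rose from 2 counts to 14312, a pooled ratio of 3716 with a 95% counting interval of 1028 to 30680. With the H2A.Z guides 6 of 10 rose and 1 fell (median 0.475 against -0.00812), led by Hes1 (2.29), the survival gene Bcl2 (1.32), the T cell factor Tcf7 (1.09) and the glycosyltransferase Lfng (0.85). The fall was lost without the 3 CRISPR samples highest in Rn45s. Dtx1 at 12.8-fold and Nrarp at 38.6-fold with 4-OHT lay between Hey1 and Il2ra in size.

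Ubiquitin ligases and adaptors that act on Notch or its ligands, the functional company of the Deltex proteins, were called in both directions. Of 22 such genes, 18 were tested with the H2A.Z guides, where 9 rose and 6 fell against 64.5% of all genes called, among them Neurl3 (2.05 on the log2 scale), Wwp2 (0.94), Lnx1 (-0.98) and Mib2 (-0.93). With 4-OHT (36.2% of all genes called) 7 of 19 rose and 5 fell, or 6 and 7 under upper-quartile scaling, among them Neurl3 (-1.58), Asb2 (-0.56), Lnx1 (0.43) and the arrestin Arrb1 (-0.38). With wild-type BioNICD, where 65.6% of all genes were called, 6 of 19 rose and 5 fell. Asb2, a cullin ligase subunit and known Notch target, rose by 2.37 on the log2 scale, to 158 CPM. Neurl3 (0.91), Itch (0.91) and Arrb1 (0.87) also rose. The medians, 0.0925, -0.0526 and 0.0127, stood beside -0.00812, -0.000449 and -0.0222 over all genes. Numb, an adaptor that opposes Notch, was close to Dtx2 in its pattern across samples.

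The transcription complex through which NICD acts, with LEF1, a known partner of NRARP, was read from 18 genes in the files. Rbpj fell by 0.35 with 4-OHT and by 0.57 with wild-type BioNICD on the log2 scale, and Lef1 fell by 1.42 and 0.58. With 4-OHT 5 of 16 fell and 1 rose (Kat2b, 0.22), Kat2a among the lower ones (-0.24), with a median of -0.000504; without NICD-ER ethanol replicate 1, 3 fell and 1 rose. The calls with 4-OHT were thus near the 36.2% of all genes called. With wild-type BioNICD (65.6% of all genes) 6 rose and 6 fell, or 3 and 7 under upper-quartile scaling; Maml2 rose from 3 to 85 counts, a pooled ratio of 14.7 with a 95% counting interval of 4.87 to 72.8. With the H2A.Z guides (64.5% of all genes) 7 of 15 rose and 2 fell, or 7 and 1 without the 3 CRISPR samples highest in Rn45s, a share near that of all genes; among those that rose were Maml3 (1.01), Ctbp1 (0.74) and Hdac1 (0.45).

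Of 9 Notch receptor and ligand genes 5 were tested in each comparison. Jag1, a ligand, rose with 4-OHT (1.05 on the log2 scale) and with wild-type BioNICD (0.65) and fell with the guides (-0.51, adjusted p = 0.0493, edgeR), a call that was lost without the 3 CRISPR samples highest in Rn45s. Notch2, a receptor at 163 to 295 CPM over all samples, fell with 4-OHT (-0.25) and rose with wild-type BioNICD (0.33) and with the guides (0.32). Jag2 rose with the guides (0.40), and Notch4 fell with wild-type BioNICD (-0.79). Notch1 reads did not pass with 4-OHT (92.0 ± 2.50 CPM against 98.4 ± 2.83 CPM with ethanol, n = 2 each, adjusted p = 0.0807, edgeR). Dtx1 and Nrarp were thus higher with 4-OHT at similar Notch1 read levels.

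**Figure D4:**
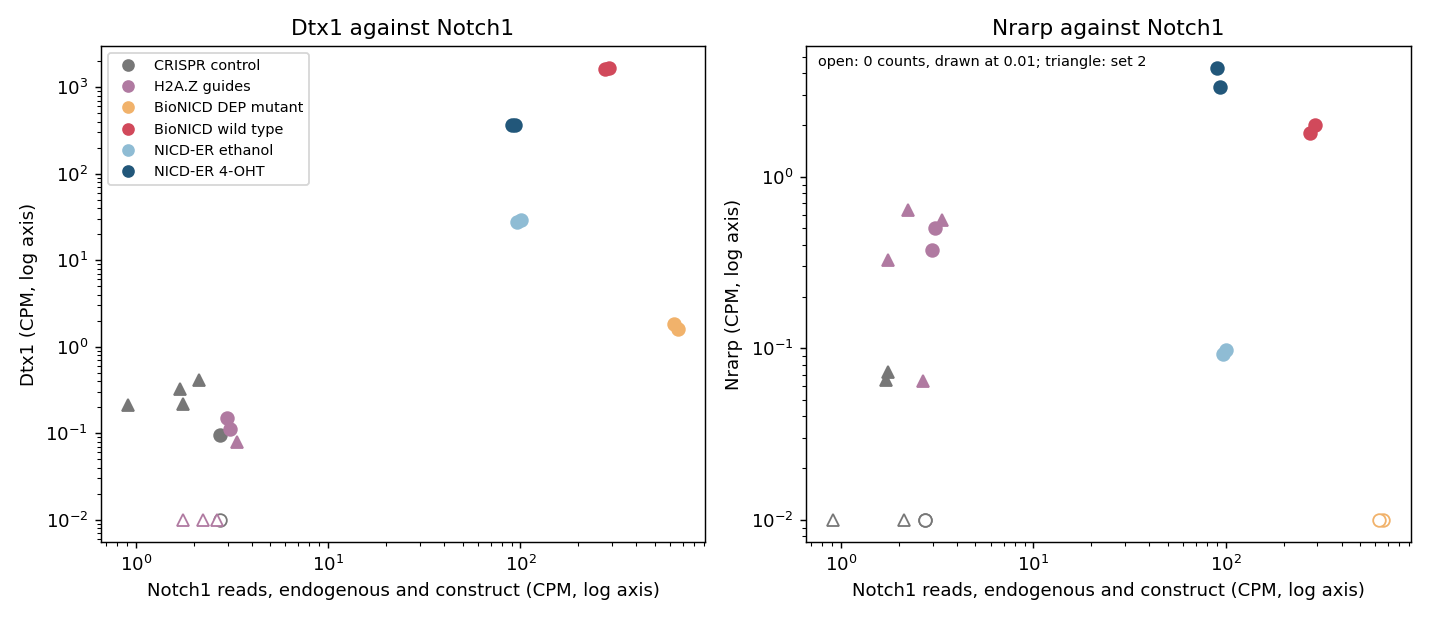
Dtx1 (left) and Nrarp (right) against Notch1 reads, which include construct and endogenous RNA, each in CPM on log axes, 1 point per library coloured by group; open points are libraries with 0 counts drawn at 0.01, and triangles are set 2. The DEP mutant libraries have the most Notch1 reads (628 and 657 CPM) with 1.59 to 1.83 CPM of Dtx1 and 0 counts of Nrarp.

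Genes most like each of the 5 in pattern were taken by Pearson's r of log2 CPM over the 20 samples, among 11347 genes. Samples of a group share construct and treatment, so these values describe 6 groups more than 20 independent points. Genes picked in this way resemble the gene in question by selection, so a group order that they share with it is no separate result. Closest to Dtx1 were Bcl3 (r = 0.980), an inhibitor-kappa-B family protein, Serpinb6b (0.978), Arhgef10l (0.976), Neb (0.968) and the drug transporter Abcb1b (0.967). Serpinb6b went from 0.500 CPM in the DEP mutant to 318 CPM with wild-type BioNICD and stood at 2.17 CPM with ethanol and 46.0 CPM with 4-OHT. Closest to Nrarp were Ergic1 (0.954), the phosphatase Ptpn1 (0.945), Patz1 (0.936), the receptor kinase Ret (0.935) and the NF-kappa-B subunit Nfkb1 (0.926), all of which were, like Nrarp, higher with the guides than in the controls by their group means and highest with 4-OHT or wild-type BioNICD. Nfkb1 had means of 335 CPM in the controls, 558 with the guides and 841 with 4-OHT.

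Closest to Dtx4 were Cd74 (r = 0.973), the MHC class II invariant chain, Gpr132 (0.963), Dlg1 (0.955), Tnfrsf8 (0.944), which encodes CD30, and 1810011H11Rik (0.935). Closest to Dtx2 were Mapkapk3 (0.969), Numb (0.962), Slc15a4 (0.962), Laptm4b (0.9603) and Ifi27l2a (0.959), all lowest in the guide samples by their group means, and closest to Dtx3 were Cyp4f13 (0.941), Msi1 (0.924), Susd6 (0.920), Ern1 (0.914) and Ppm1j (0.911). Among the 5 genes themselves r was highest for Dtx1 with Dtx4 (0.859) and lowest for Dtx2 with Nrarp (-0.148), and Dtx1 with Nrarp stood at 0.653.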

How the data were processed

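RNA-seq libraries of 20 samples were read as deposited. Ribosomal RNA was removed before stranded libraries were made, per the labels' protocols. FastQC, Trimmomatic, STAR, featureCounts and DESeq2 are the tools that the submitters' processing notes list. Per the file headers, the authors made raw read counts per gene with featureCounts 1.5.0 over exons of a UCSC mm9 annotation, with no strand option set. Other versions, trimming and alignment settings were not given in the sources used here.

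Groups and replicate numbers come from the titles. For 6 of the 8 set 2 samples title and description disagree on the group; the plasmid field matches the title, which was used. The descriptions of replicate 2 of both NICD-ER groups name replicate 1; the titles were used, and the counts of the 2 replicates differ. Counts were tested with edgeR 4.0.16 in R 4.3.3 (quasi-likelihood, TMM, filterByExpr, Benjamini-Hochberg over all genes tested, call at adjusted p under 0.05). The H2A.Z fit held 12 samples with the set as a covariate, the NICD fit 8 samples with 1 coefficient per group, and the fit against CRISPR controls 14 samples with the set as a covariate. An SE is the absolute log2 fold change divided by the square root of F, so it can be too small for genes with few counts. The 95% intervals of log2 fold changes use this SE and a t distribution with the residual degrees of freedom. These were 9 in the H2A.Z fit and 4 in the NICD fit. The edgeR test does not use these intervals, which can include 0 where its unadjusted p is under 0.05. RPKM uses the exon length in the files. Counting intervals are exact binomial at 95%, and they and the floor of 3 counts cover counting error only, since reads carry no molecular identifiers.

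The 5 genes, the lists and the tests were chosen with earlier results of these data known. Named were the 5 genes, Dtx3l and Parp9, H2afz, H2afv and Notch1, up to 4 called genes with the largest change per list and comparison, and the 5 genes most alike by Pearson's r among those reaching 1 CPM in a group (log2 CPM, prior count 2); some genes under this rule are not reported here. The exact permutation test of Dtx1 and Nrarp with the guides was added after seeing that the filter removed them, and later also run within sets. Promoter windows are RefSeq sequences of another build than the counts and were matched by symbol. Replicate pairs differed by more than sampling noise in every group (mean chi-square per gene at least 2.66 over genes with 20 counts or more), and each sample counted as 1. Some libraries were much alike. Guide replicates 3 and 4 had a value of 2.75 and guide replicates 5 and 6 of 3.23, against 30.2 to 92.5 for the other guide pairs. Control replicates 3, 4 and 5 had 2.99 to 4.43 among themselves, against 33.95 to 37.09 with control replicate 6. The fits and permutations treat such libraries as independent, which was not tested. The tests were checked on simulated counts. Alternatives were DESeq2 1.42.0, upper-quartile scaling, no filter, other sample sets, a replicate block and leaving out each replicate.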

Additional observations from a re-analysis of the deposited data

Results flagged for a closer look

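Dtx2 in H2A.Z guide replicate 1 stood at 27.98 CPM, apart from the other 5 guide samples at 23.0 to 24.8 CPM; its gap was 0.634 of the group's range, above the critical value of 0.625 for 6 samples. About 1 in 20 groups is picked out in this way by chance, and the sample still lay below all 6 controls. The same library held 30.7 CPM of summed fibroblast markers, whose part in the value was not tested.

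The response differed between the NICD-ER and BioNICD comparisons for 4 genes by a test of the difference itself (edgeR, NICD-ER effect minus BioNICD effect on the log2 scale). The difference was -6.18 for Dtx1 (3.68 against 9.86), -1.553 for Dtx4 (0.22 against 1.77), -1.953 for Dtx3l (0.29 against 2.24) and -1.4 for Parp9 (0.46 against 1.86). The adjusted p was 1.7e-23, 8.36e-08, 6.24e-17 and 7.53e-15, in that order, with 2 samples in each of the 4 groups and 51.5% of all genes tested passing the same test.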

How the results depend on the processing

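Of 706 values under alternatives to 45 results, 667 kept their direction, their side of the threshold or, for counts of genes, their size within 1.5 times; 3 lost a call, 18 gained one, 6 counts moved and 12 values changed sign, and where no cause is named the cause was not tested. Direction and side of the threshold of Dtx1, Nrarp and Dtx4 in both NICD comparisons and of Dtx2 with the guides held under every alternative run. With no term for the set, against the CRISPR controls, Dtx2 was 0.1054 in the DEP mutant (from -0.03), 0.01658 with ethanol (from -0.12) and called at 0.21 with wild-type BioNICD, Dtx3 was called at 0.36 in the DEP mutant and 0.28 with ethanol, and Dtx4 lost its call at 0.54 and 0.57. Upper-quartile scaling gave Dtx2 0.001637 in the DEP mutant. Dtx3 in the DEP mutant was called with no filter (0.23, adjusted p = 0.0214, edgeR), with set 1 controls alone (0.23), with upper-quartile scaling (0.26) and with the replicate block (0.23, adjusted p = 0.0227). With the guides, Dtx4 was 0.36 in set 1 alone, called at -0.52 in set 2 alone and called at -0.33 in a fit of all 20 samples. Genes called fell from 6874 to 2948 in set 1 alone with the guides, which has 4 samples, from 4521 to 2218 with 4-OHT in a fit of all 20 samples, and from 1624 to 424 for the set difference without the 3 samples highest in Rn45s.

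Leaving out each replicate in turn gave these ranges. Against the CRISPR controls Dtx3 ranged from 0.119 to 0.337 in the DEP mutant and from 0.253 to 0.397 with wild-type BioNICD. Dtx3 ranged from -0.0455 to 0.165 with wild-type BioNICD against the DEP mutant, from -0.104 to 0.0429 with 4-OHT, from -0.193 to 0.0174 for the difference of these effects and from -0.159 to -0.103 with the guides. Dtx2 ranged from -0.187 to -0.0645 with 4-OHT and from -0.257 to -0.136 for the difference of effects. Dtx4 ranged from -0.437 to -0.229 with the guides. For the set difference Dtx2 ranged from -0.0496 to 0.125, Dtx3 from -0.107 to 0.0267, Dtx4 from -1.086 to -0.645 (called without guide replicate 1) and the number of genes called from 820, without control replicate 1, to 3985, without guide replicate 2. Where a group kept 1 sample, that sample was assumed to vary like the others.

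The replicate numbers did not pair the samples: deviations of same-numbered samples correlated at -0.142 to 0.228 with the guides, 0.236 for NICD-ER and -0.0112 for BioNICD. The replicate block changed no other call than that of Dtx3 in the DEP mutant, and gave 6412 genes called with the guides, 5012 with 4-OHT and 8406 with wild-type BioNICD against the DEP mutant. Depth limits Nrarp and Dtx1 in the CRISPR samples, where 3 counts correspond to 0.168 to 0.284 CPM per library.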
